A study of Drosophila melanogaster with 18 samples.

Results

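The protein-digesting enzyme genes described here are 3 serine peptidase genes, yip7, Jon65Aiii and Jon65Aiv, the aspartic peptidase gene Bace, and 2 predicted aminopeptidase genes, CG31233 and CG8773. They were chosen by gene symbol, as probes whose only symbol in the platform annotation is one of these names, with their diet ratios already known. All 6 were found among the 4144 named genes tested, each on 1 probe with a value in 18 of 18 columns. On 2-colour spotted arrays, total RNA from Drosophila melanogaster that had been switched to banana was set against RNA from a control kept on a cornmeal diet, with 6 slides and 3 sets of replicate spots per slide. The slides formed 3 dye-flip pairs, slides 2 and 3 (pair 1), slides 30 and 29 (pair 2) and slides 28 and 25 (pair 3), with banana RNA in channel 1 on the first slide of each pair and cornmeal RNA in channel 1 on the other. The labels give no strain, stage, sex, tissue, age or time on the diet, so the origin of these transcripts in the gut is background knowledge and not a label. Nor do they tie a pair to its own culture, so the spread between pairs may be technical.

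Flies digest dietary protein mainly in the midgut. Serine peptidases of the chymotrypsin type, which include the Jonah enzymes, are secreted as inactive precursors and cut inside protein chains, each preferring certain residues. Aspartic peptidases also cut inside chains, with a pair of aspartates at the active site, and many work best in acid. Aminopeptidases remove single residues from the start of a peptide and act on the fragments that the other enzymes release.

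The labels do not say whether a ratio is channel 1 over channel 2 or the reverse, nor the base of the logarithm. Ratios were taken as log2, and slides with cornmeal RNA in channel 1 were turned to the sign of the others. With channel 1 as the numerator a negative turned ratio is a lower level on banana, and with channel 2 as the numerator it is a lower level on cornmeal, so neither diet is called the higher. As deposited, the slides of a pair correlated negatively over the 4723 rows tested, with r of -0.205 in pair 1, -0.382 in pair 2 and -0.0865 in pair 3. After turning, 56.1% of rows had the same sign on both slides of pair 1, 55.4% in pair 2 and 43.0% in pair 3. The slides of pair 3 were thus the least alike, and most of its rows kept the sign of the channel instead of turning with the flip. Between 4860 and 5149 of the 5620 probes had a value in a column, and the precision of the ratios is limited by how few arrays there are.

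All 6 peptidase genes had a negative turned ratio in each of the 3 pairs, and 5 of them were negative on all 6 slides, Jon65Aiv being the exception. Over all rows tested, 15.2% were negative in the 3 pairs and 2.69% on the 6 slides. Because the genes were picked with this contrast known, these counts and the ratios below describe the genes and are not tested, and nothing is read from the comparison with the background. In limma, 0 of the 4723 rows passed an adjusted p of 0.05 for the diet ratio (percent called 0), while 380 had an unadjusted p under 0.05, and the plain statistic without shared variance gave 0 and 324.

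Of the serine peptidases, yip7 had turned values of -0.96 on slide 2, -1.34 on slide 3, -0.91 on slide 30, -0.27 on slide 29, -1.15 on slide 28 and -0.68 on slide 25. Slide 29 was closest to 0 and slide 3 was farthest from it. The mean over pairs was -0.88 ± 0.28 (SD, n = 3), a 1.85-fold difference, and the pair values were -1.15, -0.59 and -0.92.

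Jon65Aiii, a Jonah-family serine peptidase gene, had -0.78 on slide 2, -1.04 on slide 3, -0.63 on slide 30, -0.10 on slide 29, -1.41 on slide 28 and -0.92 on slide 25. Again slide 29 was nearest to 0, here with spots between -0.19 and -0.03, while slide 28 was lowest. Its mean was -0.81 ± 0.41 (SD, n = 3), a 1.76-fold difference, with pair values of -0.91, -0.37 and -1.16.

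Jon65Aiv, also of the Jonah family, had -0.68 on slide 2, -0.24 on slide 3, -0.46 on slide 30, 0.34 on slide 29, -1.31 on slide 28 and 0.56 on slide 25. Its sign turned within pairs 2 and 3, where the slide with banana RNA in channel 1 was negative and the flip partner was positive, and all 6 spots of slides 29 and 25 were above 0. The pair values of -0.46, -0.06 and -0.38 therefore average slides of opposite sign in 2 of the 3 pairs, and the mean of -0.30 ± 0.21 (SD, n = 3), a 1.23-fold difference, was the smallest of the group.

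Bace, an aspartic peptidase gene named after the vertebrate beta-secretase, had the largest ratio of the 6, with -3.67 on slide 2, -4.09 on slide 3, -2.22 on slide 30, -1.80 on slide 29, -0.89 on slide 28 and -1.46 on slide 25. The 3 pairs did not overlap on any slide: pair 1 lay lowest, pair 2 between and pair 3 nearest to 0. Pair means of -3.88, -2.01 and -1.17 spanned 2.70, whereas the slides of a pair differed by 0.419 to 0.567. The mean over pairs was -2.36 ± 1.38 (SD, n = 3), a 5.12-fold difference and the second most negative of the 4723 rows. The SD was at the 97.7th percentile of all rows, so the size of the Bace ratio is known only loosely. Its sign was the same at all 18 spots, but these are repeat spots of 3 pairs. Bace was also chosen with its sign known.

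The predicted aminopeptidase gene CG31233 had -0.59 on slide 2, -0.57 on slide 3, -0.78 on slide 30, -0.56 on slide 29, -1.09 on slide 28 and -0.32 on slide 25. Slides 28 and 25, the partners of pair 3, were its lowest and highest slides. CG31233 averaged -0.65 ± 0.066 (SD, n = 3), a 1.57-fold difference, with pair values of -0.58, -0.67 and -0.71.

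CG8773, the other predicted aminopeptidase gene, had -0.68 on slide 2, -0.56 on slide 3, -0.61 on slide 30, -0.62 on slide 29, -0.97 on slide 28 and -0.60 on slide 25. Apart from slide 28 the slides lay within a narrow band. Its mean was -0.67 ± 0.097 (SD, n = 3), a 1.59-fold difference, with pair values of -0.62, -0.61 and -0.78. The aminopeptidase genes had the smallest SDs over pairs of the 6 genes, at the 7.92th percentile of all rows for CG31233 and the 15.9th for CG8773. Both genes were first singled out by a rule that favours a small spread, so these SDs are not independent of how they were picked.

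**Figure D1:**
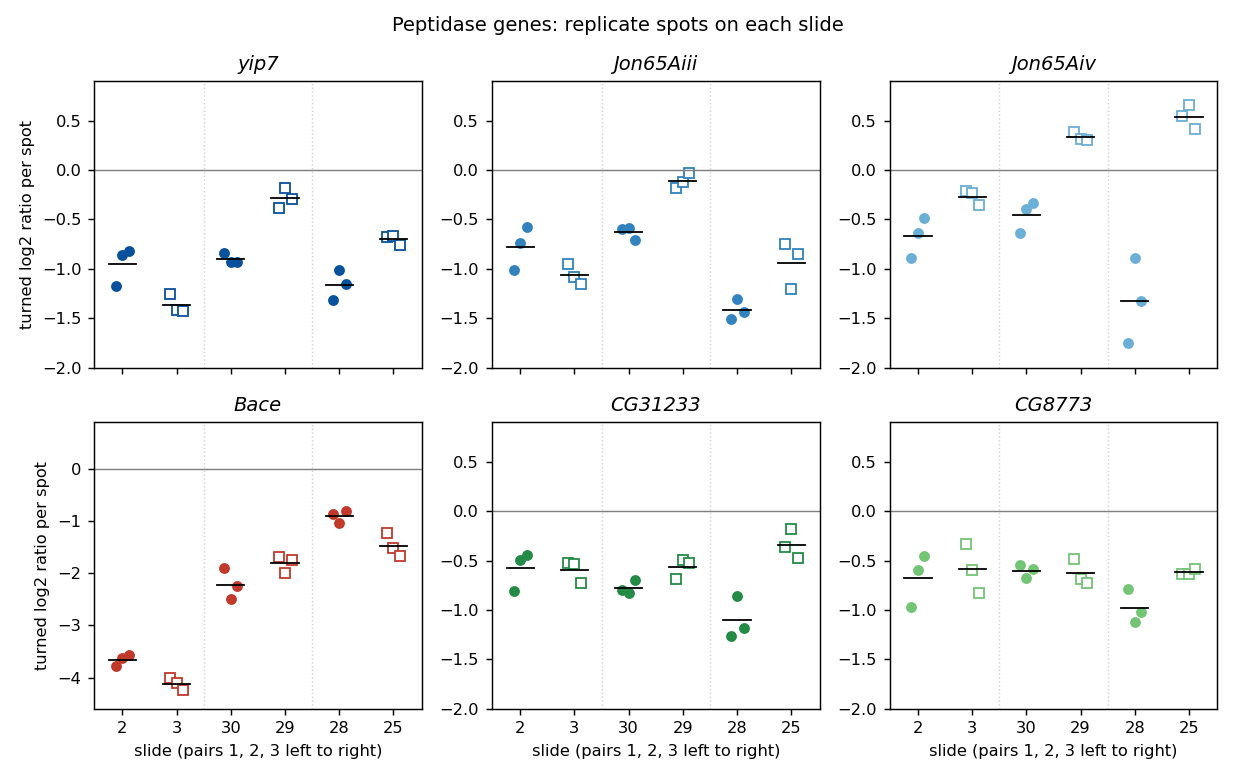
Turned log2 ratios of the 6 peptidase genes at each of the 18 spots, centred on the median of each column, by slide; filled circles are slides with banana RNA in channel 1, open squares are slides with cornmeal RNA in channel 1, and bars are slide means. The vertical axis of Bace covers a wider range than the others. Jon65Aiv alone has spots above 0, on slides 29 and 25, and Bace lies lowest on slides 2 and 3.

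The replicate spots show the spread within a slide. With every column centred on its own median, the pooled SD between spots of a slide ran from 0.12 for yip7 to 0.213 for Jon65Aiv, and the median SD over all probes was 0.138 to 0.187 depending on the slide. The widest spread within a slide was that of Jon65Aiv on slide 28, with an SD of 0.426 and spots from -1.75 to -0.89. For yip7 all 18 spots were negative, from -1.42 to -0.18 with a median of -0.89. For Jon65Aiv 12 of 18 were negative, from -1.75 to 0.65 with a median of -0.35.

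The 6 genes, grouped by class, shared the negative sign in every pair but did not share the order of the pairs. The mean of the 3 serine peptidase genes was -0.84 in pair 1, -0.34 in pair 2 and -0.82 in pair 3. Pair 2 thus stood nearest to 0, as it did for each of the 3 genes. That place rests largely on slide 29, at -0.01, as slide 30 had -0.67 and slide 25 of pair 3 had -0.35. For Bace pair 3 stood nearest to 0. The mean of CG31233 and CG8773, which stand here for aminopeptidases only as a pair of chosen genes, was -0.60, -0.64 and -0.75, with little difference between pairs. In pair 2, as a result, the aminopeptidase genes were more negative than the serine peptidase genes. The aminopeptidase and serine means were close on slide 30, at -0.69 and -0.67, and apart on slide 29, at -0.59 and -0.01. In pairs 1 and 3, by contrast, yip7 and Jon65Aiii were more negative than both aminopeptidase genes. Jon65Aiv was the least negative of the 6 in every pair, so the order of the classes depends on the genes used. Bace was the most negative of the 6 in each pair and on every slide except slide 28, where it was the least negative.

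**Figure D2:**
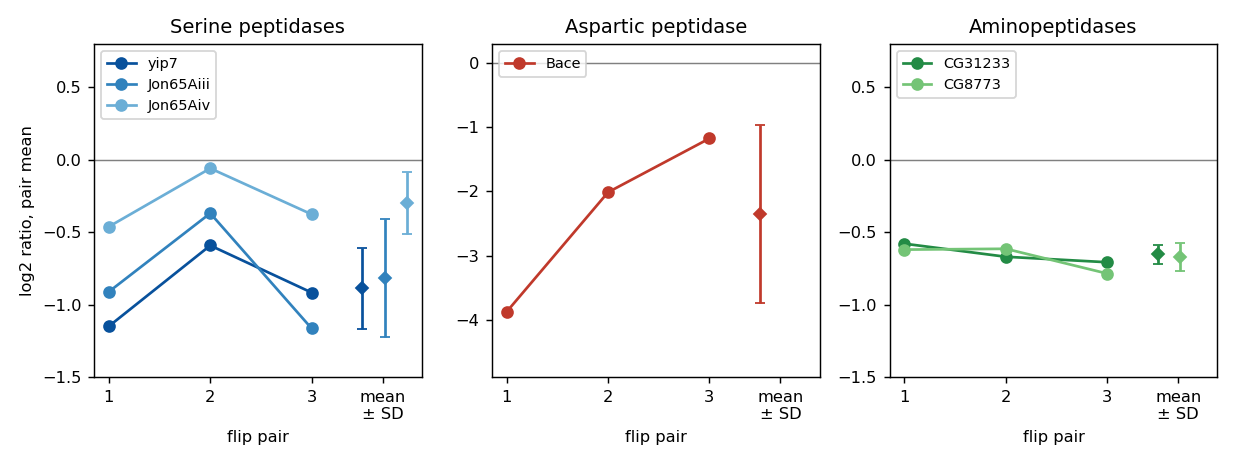
Log2 ratios of each gene in the 3 flip pairs, by enzyme class; points are means of the slides of a pair, lines join the values of a gene, and diamonds with bars are the mean ± SD over pairs. The serine peptidase genes come nearest to 0 in pair 2, Bace spans -3.88 to -1.17, and the aminopeptidase genes stay between -0.78 and -0.58. The axis of Bace covers a wider range.

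Slide by slide, likeness did not follow the classes throughout. CG31233 and CG8773 differed by a root mean square of 0.15 over the 6 slides, and yip7 and Jon65Aiii by 0.241. Against Jon65Aiv, yip7 differed by 0.756 and Jon65Aiii by 0.715, and Jon65Aiii was below Jon65Aiv on 6 of 6 slides. These distances were larger than those from yip7 to the aminopeptidase genes, 0.4 to CG31233 and 0.395 to CG8773, and Jon65Aiv itself was nearer to CG31233, at 0.556, than to either serine peptidase gene. Bace differed from the other 5 genes by 1.81 to 2.44, which its larger ratio sets. As a description over the 6 slides, which are dye-flip pairs taken as repeat hybridisations, Pearson's r was 0.816 for yip7 with Jon65Aiii, 0.812 for CG31233 with CG8773 and 0.885 for Jon65Aiv with CG31233. Turned slide values also hold the part of a ratio that stays with the channel. In pairs 1 to 3 that part was -0.22, -0.40 and -0.93 for Jon65Aiv and -0.01, -0.11 and -0.38 for CG31233, the same order. Their pair ratios did not share an order, at -0.46, -0.06 and -0.38 for Jon65Aiv and -0.58, -0.67 and -0.71 for CG31233. For Bace r ran from -0.55 with CG8773 to 0.43 with yip7. Slide 28 was the lowest slide of Jon65Aiii, Jon65Aiv, CG31233 and CG8773 and the highest of Bace.

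The part of a ratio that stays with the channel when the dyes are flipped was taken from the same slides without turning. It was tested with limma over all 4723 rows. None of the 6 genes passed, with adjusted p from 0.526 to 0.797, and over all rows 0 passed (percent called 0) while 434, or 9.19%, had an unadjusted p under 0.05. Jon65Aiv had the largest channel component, -0.52 (95% interval -0.96 to -0.076, limma adjusted p = 0.526), larger in size than its diet ratio. Its components in the 3 pairs were -0.22, -0.40 and -0.93. The other 5 genes had channel components of 0.0786 to 0.168 in size, and the 95% interval was -0.48 to 0.24 for yip7 and -0.27 to 0.46 for Bace. An interval that includes 0 does not show that a gene has no channel component. By arithmetic, a gene with 1 sign on both turned slides of a pair has a channel component smaller in size than its pair ratio. This held for these 5 genes, which were negative on all 6 slides and chosen with their ratios known. Their smaller components may thus follow in part from the choice.

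**Figure D3:**
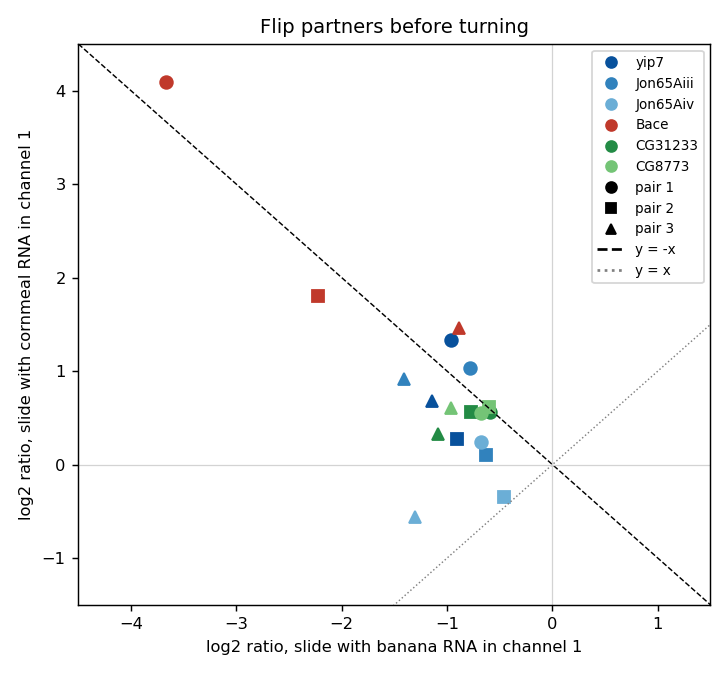
Log2 ratio of each gene on the slide with banana RNA in channel 1 (horizontal axis) against its flip partner (vertical axis), before turning; colours are genes and symbols are pairs. Points near the dashed line y = -x turn fully with the dye flip, and points near the dotted line y = x stay with the channel. Jon65Aiv in pairs 2 and 3 lies below 0 on both axes, and the other points lie in the upper left, where the sign turned.

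The 3 serine peptidase genes lie close together on chromosome arm 3L in the Release 6 gene order. From CG10477 to CG10472 there are 10 protein-coding genes in a row, and 9 of them, all but tant, carry a serine protease synonym (SP or SPH and a number) in the reference gene table. Of those 9, 4 were tested, namely yip7, Jon65Aiv, Jon65Aiii and CG10472, and all 4 had a negative mean. Over all rows tested, 2355 of 4723 had a negative mean. Because yip7, Jon65Aiv and Jon65Aiii were chosen with their ratios known, the count of 4 says nothing about the stretch. CG10472 was not among the genes chosen for their ratios here, and it was singled out after its value was seen. Its turned values were -0.92 on slide 2, -0.54 on slide 3, -0.72 on slide 30, -0.09 on slide 29, -0.78 on slide 28 and -0.36 on slide 25. As in yip7 and Jon65Aiii, all 6 slides were negative and slide 29 was nearest to 0. CG10472 averaged -0.57 ± 0.16 (SD, n = 3), a 1.48-fold difference, and did not pass over all rows (limma adjusted p = 0.417). The gene tant, which lies between them, had -0.37 ± 0.166. The Jonah genes are close relatives, and whether a spot also bound transcripts of its relatives was not tested.

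The measured genes nearest to CG31233 and CG8773 on 3R did not have ratios as negative as theirs. The files used here annotate no enzyme class for these CG-numbered genes, so other aminopeptidase genes of the array were not counted, and a shared sign is described only for CG31233 and CG8773. Next to CG8773, CG8774 had -0.0046 ± 0.066 and CG32473 had -0.04 ± 0.161. Beside CG31233, CG31343 had -0.11 ± 0.347 and CG42335 had -0.46 ± 1.32, the latter with a wide spread (SD, n = 3 each). Neighbours of Bace on 2L were also nearer to 0, with CG13096 at -0.17 ± 0.145 and CG13097 at -0.05 ± 0.264. CG31233, CG8773 and Bace were chosen with their ratios known and lie in the lowest 2.46% of rows. Neighbours nearer to 0 thus follow largely from the choice.

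Serine protease genes as a whole did not share the negative sign. Of 43 array genes with an SP or SPH synonym numbered up to 250 in the reference gene table, 41 were tested. Leaving out yip7, Jon65Aiii and Jon65Aiv, 38 remained, of which 0 passed limma's adjusted threshold. At an unadjusted p under 0.05 there were 2 negative and 5 positive genes, where the background was 3.64% negative and 4.4% positive. Their median ratio was 0.08, against 0.00 over all rows, and 3 were negative in all 3 pairs, 13 positive in all 3 and 22 mixed, where 15.2% and 15.3% of all rows had one sign in the 3 pairs. Ordered by mean ratio, the 4 tested genes of this stretch of 3L took places 2 to 5 of the 41 from the negative end. As 3 of them were chosen with their ratios known and CG10472 was named after its value was seen, these places are a description only. The first place was held by mas, a catalytically inactive serine protease homologue of muscle attachment, at -0.99 ± 0.435 (SD, n = 3), whose slides in pair 1 disagreed with 2.18 and -3.51. The list also caught skd, a Mediator subunit gene, through its synonym.

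CG10472 was the 1 gene of the 38 that was negative on all 6 slides, and 6 were positive on all 6, where the background was 2.69% and 3.96%. The positive genes, named after their values were seen, were CG9672 at 1.19 ± 0.775, CG10764 at 0.42 ± 0.062, SPE at 0.40 ± 0.276, CG3505 at 0.34 ± 0.168, spirit at 0.30 ± 0.03 and CG31200 at 0.25 ± 0.133 (SD, n = 3 each). CG9672 had the largest positive ratio of the list, with pair values of 0.51, 1.04 and 2.03. Send1 and Ser7, the other tested genes with a serine peptidase symbol of the Try, Ser, Send or Jonah kind, had 0.21 ± 0.182 and 0.18 ± 0.256 (SD, n = 3 each).

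**Figure D4:**
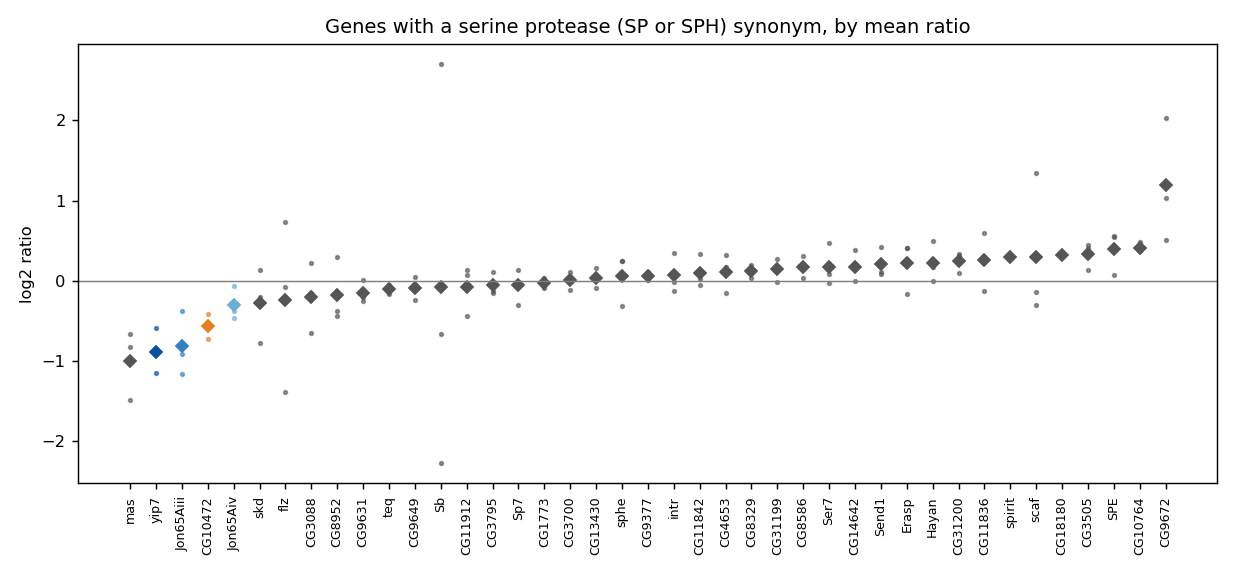
Log2 ratios of the 41 tested genes with a serine protease synonym, ordered by mean; diamonds are means, dots are the 3 pairs, blue marks yip7, Jon65Aiii and Jon65Aiv, and orange marks CG10472. The 4 coloured genes, chosen or named with their values known, take places 2 to 5 from the negative end. CG9672 stands at the positive end at 1.19.

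Peptidases of other kinds and peptidase inhibitors did not share one sign. The lysosomal aspartic peptidase gene cathD, matched by symbol while aspartic peptidase genes known only by CG numbers were not looked for, had -0.27 ± 0.17, with 4 of 6 slides negative. The lysosomal cysteine cathepsin gene CtsB had -0.31 ± 0.179 and CtsL1 had 0.07 ± 0.289 (SD, n = 3 each). Of 7 serpin genes, which encode peptidase inhibitors, 0 passed limma's adjusted threshold and 0 had an unadjusted p under 0.05. At that unadjusted p the background was 3.64% negative and 4.4% positive. The serpin median was 0.03, and 2 serpin genes were negative in all 3 pairs and 5 were mixed. Over all rows, 15.2% were negative in the 3 pairs, 15.3% positive, and 3282 of 4723 mixed. The smallest p-values belonged to Spn42Dd at -0.29 ± 0.25 and Spn27A at -0.27 ± 0.231 (SD, n = 3 each). The largest serpin ratio, named after it was seen, was positive, that of Spn88Ea at 1.11 ± 1.43 with 5 of 6 slides above 0.

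Digestive genes of other substrates did not share the negative sign. The gut lipase gene mag was positive on 6 of 6 slides at 1.14 ± 0.221, and the amylase gene Amy-p was positive on 5 of 6 at 1.04 ± 0.974. The maltase gene Mal-A5 had 0.07 ± 0.254 (SD, n = 3 each). The symbol pattern also caught LysRS, a lysyl-tRNA synthetase gene, at 0.07 ± 0.142. Of these 4 genes 0 passed limma's adjusted threshold, and 1, mag, had an unadjusted p under 0.05, where the background was 3.64% negative and 4.4% positive. In bulk RNA a change in the share of gut tissue and a change in transcript per cell cannot be told apart.

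Genes with the most similar slide values were sought by root mean square distance over the 6 turned slides. Closest to the mean of the 3 serine peptidase genes were CG17660 at a distance of 0.229, CG10472 at 0.256, CG11018 at 0.286, the trehalose-phosphate synthase gene Tps1 at 0.29 and CG31775 at 0.324. Tps1 had -1.59 on slide 28 and 0.25 on slide 25, the same change of sign within pair 3 as Jon65Aiv. Only 43.0% of all rows had the same sign on both turned slides of pair 3, so such a change was common. Closest to the mean of the aminopeptidase genes were the glycogen phosphorylase gene Glyp at 0.217, CG42676 at 0.252, CG10472 again at 0.259, the glucuronyltransferase gene GlcAT-P at 0.259 and the tubulin acetyltransferase gene Atat at 0.281.

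No gene came as close to Bace. The nearest, CG18281, stood at a distance of 1.06, followed by Alms1b at 1.17, the mucin-related gene Mur18B at 1.38, CG30412 at 1.41 and Faf2 at 1.43. CG18281 had -2.15 and -2.40 in pair 1, -1.45 and -1.16 in pair 2 and -1.03 and -0.74 in pair 3, the same order of pairs as Bace at smaller size. Genes of large ratio have few others near them, so distances to Bace are not comparable with those to the other classes.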

How the data were processed

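The deposited table holds log2 ratios as taken here. How the authors scanned, filtered or normalised the slides, which channel is the numerator and the log base are not given in the sources used here. Intensities were not used here, so dim spots could not be filtered. Spot sets were averaged per slide, slides centred on their median, slides with cornmeal RNA in channel 1 turned, and the slides of a pair, named as flip partners in the labels, averaged. Rows with both slides in all 3 pairs were tested against 0 with limma 3.58.1 in R 4.3.3 (two-sided, Benjamini-Hochberg, threshold 0.05). The channel effect used the same fit without turning. On simulated spots over 4723 rows, 45% of 100 genes changed by 1 (log2) passed for the diet ratio and 52% for the channel effect. Symbols come from the platform annotation. Of 4955 probes with a single gene, 4876 were found in the Release 6 gene table. Genes, lists and alternatives were chosen with earlier results of these data known. Named genes were the 6 members, the 2 smallest p-values of each list (all genes in lists of up to 5) and the 5 nearest genes per class. Neighbours in the genome and other genes outside this rule were added after their values were seen. Lists that need protein or promoter sequence were not formed. The SP and SPH list was added after the data were seen.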

Additional observations from a re-analysis of the deposited data

Results flagged for a closer look

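CG8773 on slide 28 stood apart from its other slides. Its turned value there was -0.97, and the gap to the next slide was 0.696 of the whole range, above the 95% critical value of Dixon's test for 6 slides. The 3 spots of slide 28 lay between -1.12 and -0.79. The same test was run on the 6 peptidase genes, and chance flags about 1 in 20 such groups of independent values. The slides of a pair are taken as repeat hybridisations, though the labels do not state shared RNA, and CG8773 was picked partly for a small spread. That rate thus holds only loosely here. The mean of CG8773 without pair 3 was -0.62.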

How the results depend on the processing

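The 6 gene ratios kept their negative sign under every alternative run except that of slides not turned, which treats the deposited values as already turned by the authors. Their values then were -0.12 for yip7, -0.13 for Jon65Aiii, -0.52 for Jon65Aiv, 0.096 for Bace (reversed), -0.17 for CG31233 and -0.079 for CG8773. These are the channel components given above, and they estimate a diet ratio only if the authors had turned the slides. Before turning here, Bace was -3.67 on slide 2 and 4.09 on slide 3, and flip partners correlated negatively over all rows. The deposited slides of Bace were thus of opposite sign. With the median of the spot sets CG31233 had -0.57. Leaving out 1 pair moved Bace between -2.95 (without pair 3) and -1.59 (without pair 1). Leaving out each pair in turn gave 0 diet calls (213 to 574 rows at an unadjusted p under 0.05), and the 6 slides as units gave 20 calls with a random replicate block for the pair (limma, estimated correlation -0.0895) and 1 call, CG10962, with no replicate block. The 20 depend on that negative correlation: with a term for orientation, an alternative added after seeing the data, the correlation was 0.102 and 1 row passed. CG8773 was among the 20 and did not pass in the other fits of slides. It was picked with this contrast known, so that call is no test of it. In these fits a repeat hybridisation counts as a replicate. The channel effect gave 2 calls with the median of spot sets, 2 with slides not centred, and 0 to 16 with a pair left out, the 16 without pair 2. Rows negative on every slide numbered 127, and 221 to 477 when a pair was left out, since 4 slides then had to share the sign. Centring each spot-set column, an alternative added after seeing the data, changed no call. Each gene had 1 probe, so single probes gave no further values. Signal over background is unknown, so how far dim spots shaped a ratio was not tested.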

Other observations

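cathD, chosen for this comparison after its values were seen, followed Jon65Aiv slide by slide. Its turned values were -0.55 on slide 2, -0.30 on slide 3, -0.42 on slide 30, 0.25 on slide 29, -0.91 on slide 28 and 0.32 on slide 25, with the same 2 slides above 0 as Jon65Aiv. Over the 6 slides the genes differed by a root mean square of 0.203, with r of 0.993 as a description. The channel component of cathD was -0.36 ± 0.246 (SD, n = 3), beside -0.52 ± 0.371 for Jon65Aiv, and neither passed (limma adjusted p = 0.526 in both).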
